A study of Homo sapiens with 2 samples.

Results

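The genes that write and read methylation of histone H3 at lysine 9 were compared between HCT116 cells carrying 1 short hairpin RNA against SUN2 and HCT116 cells carrying a scrambled hairpin. The group held 10 genes: the H3K9 methyltransferases SETDB1, SUV39H1, SUV39H2, EHMT1 and EHMT2, the HP1 genes CBX1, CBX3 and CBX5, the corepressor TRIM28 and the chromatin remodeller ATRX. They were taken by gene symbol, which gave 33 of the 49395 probe sets on the array and 10 of 18132 genes with a probe set of 1 symbol. No probe set shared between a member and another symbol was found.

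HCT116 is an established human colorectal carcinoma line, and both cultures were grown in DMEM with 10% serum. Each group held 1 Affymetrix array, labelled from 100 ng of total RNA, so no value has a replicate. SUN2 spans the inner nuclear membrane as part of the LINC complex, which joins the nucleus to the cytoskeleton.

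H3K9 methylation marks chromatin that is kept silent, such as the repeats around centromeres, retroelements and clusters of zinc finger genes. The methyltransferases write the mark, HP1 proteins bind it through a chromodomain and hold neighbouring nucleosomes together, and TRIM28 carries SETDB1 to sites chosen by KRAB zinc finger proteins. Heterochromatin lies against the inner nuclear membrane, where the lamin B receptor binds HP1.

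The 10 genes differed little between the arrays, and the 2 lowest single probe sets past the filter belonged to the HP1 genes CBX1 and CBX5. Differences are given as knockdown minus control, in log2(intensity + 16). CBX1 was 1.25-fold lower in the knockdown culture (log2 difference -0.32) and was the only gene of the 10 past 1.2-fold on its brightest probe set. All 3 CBX5 probe sets past the filter were lower, where 49.0% of all probe sets past the filter were lower. The rest of its 7 probe sets lay below the filter and were also lower. Without the filter 58.1% of all genes were lower, and 3 of the 7 were designed against 1 target transcript. All 3 CBX3 probe sets were higher, within the quartiles of probe sets of their own brightness. On the brightest probe set of each gene CBX5 stood at -0.11, beside ATRX and SETDB1 at -0.12 each. By that measure 6 of the 10 were lower and 4 higher, with a median of -0.07, against a median of -0.0008 over the 12218 genes bright enough to be kept.

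The filter kept probe sets whose mean intensity over both arrays reached 108, the median of the array. It kept 23 of the 33 probe sets and at least 1 for each of the 10 genes. Of all genes past the filter, 0.884% were at least 1.2-fold lower and 5.97% at least 1.2-fold higher, against 1 and 0 of the 10. At 1.5-fold, a size that 0.336% of all genes passed upward and 0.0246% downward, the count was 0 of 10 in both directions. Of all genes past the filter 50.2% were lower, and 5 of the 10 lay inside the quartiles of all genes, -0.08 and 0.11. The 10 genes were chosen with earlier results of these data known, and the counts describe these arrays.

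The only error that can be had is the scatter of probe sets around the mean of their gene, an SD of 0.09 (log2 scale) over 5786 genes. It covers probe error within these arrays and no variation between cultures. Of the 23 probe sets past the filter, 11 lay within 1 such SD of 0, where 52.8% of all probe sets past the filter lay. A further 4 lay more than 2 such SDs from 0, the distance passed by 15.9% of all probe sets past the filter: those of CBX1, 2 of CBX5 and 1 of SUV39H1, all lower.

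**Figure D1:**
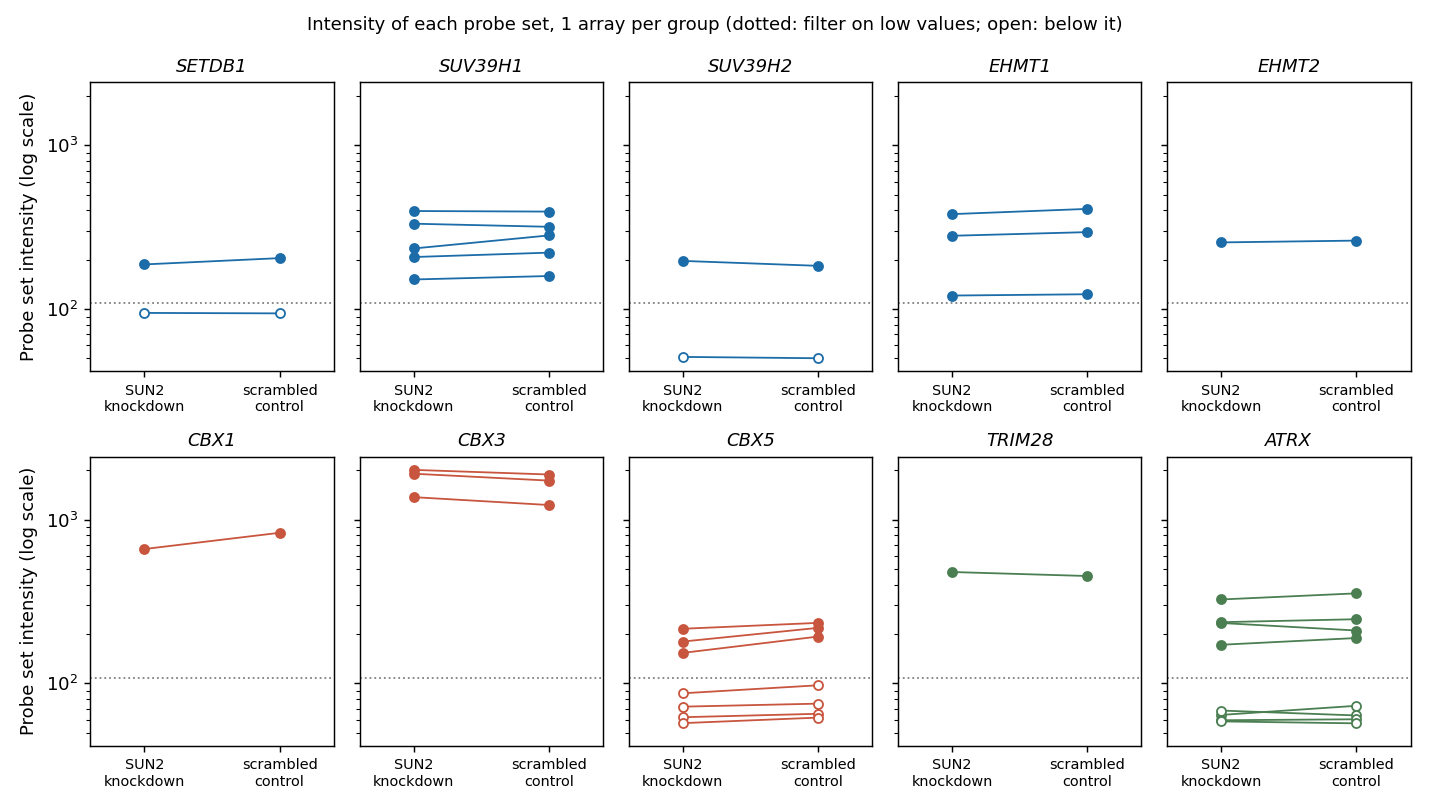
Probe set intensity (log axis) on the SUN2 knockdown array and the scrambled control array for the 10 genes, with 1 line for each of the 33 probe sets. Filled points passed the filter on low values (dotted line), and open points did not. CBX1 and all 7 CBX5 probe sets are lower on the knockdown array and all 3 CBX3 probe sets are higher.

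SUN2 itself was only slightly lower in the knockdown array. All 6 of its probe sets were lower, the 4 past the filter by between -0.39 and -0.07, and its brightest stood at 81.8% of control. The arrays differed with intensity: the median difference of probe sets past the filter was -0.03 in the dimmest of 10 equal bins and 0.11 in the brightest. Of 23 background probe sets on the array, built to match no human sequence, 20 were lower in the knockdown array, with a median of -0.04. The median control held 14 G or C bases and lay below the filter. Brighter controls, with 17 to 22 such bases and at 146 to 546 in the knockdown array, differed by between -0.06 and -0.12. The control with 25 differed by -0.33. Of 9 colon epithelial markers 7 passed the filter, EPCAM and CDX2 among them, and VIL1 and LGALS4 did not. All 7 were higher, with intensities summing to 9295 in the knockdown array and 7949 in the control. The keratins KRT8 (0.34) and KRT18 (0.32) were past 1.2-fold and KRT19 differed by 0.22, while CDH1, CLDN7 and CDX2 differed by 0.04 each. Of 16 fibroblast, endothelial and immune markers with a probe set, 7 passed the filter, all lower, the brightest (PDGFRB) at 230 in the knockdown array and 254 in the control. The part of these shifts in the results below was not tested.

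The HP1 proteins are small paralogs that bind methylated H3K9. CBX1 encodes HP1 beta, CBX3 encodes HP1 gamma, which is also found over transcribed genes, and CBX5 encodes HP1 alpha, the paralog most tied to pericentromeric heterochromatin. The bases before their annotated starts are shown as description, and no link between them and the differences was tested. They are the 250 bases upstream of the RefSeq start, in GRCh38.p14 and in the direction of the gene: chr17:48101187-48101436 (minus strand) for CBX1, chr7:26201193-26201442 (plus strand) for CBX3, and chr12:54280123-54280372 (minus strand) for CBX5, the most upstream of its 3 listed starts. Capitals mark matches on either strand to the motifs searched.
CBX1: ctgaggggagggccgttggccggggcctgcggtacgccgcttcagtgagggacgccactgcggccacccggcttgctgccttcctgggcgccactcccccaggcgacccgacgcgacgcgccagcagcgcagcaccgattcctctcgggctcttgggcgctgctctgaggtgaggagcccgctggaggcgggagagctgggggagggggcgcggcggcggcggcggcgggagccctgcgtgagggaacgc
CBX3: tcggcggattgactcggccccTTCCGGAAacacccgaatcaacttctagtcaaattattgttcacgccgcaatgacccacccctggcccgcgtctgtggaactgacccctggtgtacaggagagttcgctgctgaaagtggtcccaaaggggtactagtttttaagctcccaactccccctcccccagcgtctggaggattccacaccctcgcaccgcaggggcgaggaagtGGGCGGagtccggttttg
CBX5: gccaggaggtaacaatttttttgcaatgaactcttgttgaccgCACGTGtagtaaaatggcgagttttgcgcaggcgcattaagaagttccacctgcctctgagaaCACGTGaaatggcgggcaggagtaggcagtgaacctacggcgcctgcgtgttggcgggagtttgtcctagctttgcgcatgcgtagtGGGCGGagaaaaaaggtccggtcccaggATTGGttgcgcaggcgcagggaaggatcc

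The motifs were the GC box GGGCGG, the CCAAT box CCAAT, the ETS core CCGGAA, the E box CACGTG and the cyclic AMP response core TGACGT. No pair of these overlapped in the HP1 windows, except the ETS core read on both strands of CBX3. CBX3 held the ETS core and 1 GC box, and CBX5 held 2 E boxes, 1 GC box and 1 CCAAT box. CBX1 held none of the 5 strings. Of 35116 RefSeq promoter windows of the same length, 42.6% held the GC box, 32.0% the CCAAT box, 14.5% the ETS core and 6.34% the E box. The cyclic AMP response core was in 7.10% of them and in none of the 3 windows shown. A match is a string of letters and not a bound site.

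CBX1 was measured by 1 probe set (11715546_s_at), which read 661 in the knockdown array and 831 in the control. The knockdown value was 79.6% of control. It was the lowest of the 23 probe sets past the filter on the log2(intensity + 16) scale, and level with the 79.5% of 1 CBX5 probe set (11716278_s_at) as a plain percentage. Among all genes past the filter 53 had a larger decrease, while 80 had a larger decrease than SUN2 (brightest probe set, -0.28). The next brightest SUN2 probe set read 393 in the knockdown array and 510 in the control (-0.36), against 407 and 498 for the brightest. A further SUN2 probe set differed by -0.39, and the dimmest past the filter by -0.07. With CBX1 at -0.32, the order of CBX1 and SUN2 depends on the SUN2 probe set used. Probe sets as bright as that of CBX1 had a median difference of 0.11 (brightest of 10 bins), so CBX1 lay 0.43 below its neighbours in intensity, with a difference of -0.41 after a loess correction of that trend.

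CBX1 lost 169 intensity units. Among the 23 background controls, 1 lost more, the control with 25 G or C bases, which lost 297. The next, with 24, lost 81.1. The base composition of the CBX1 probes was not used here, and the part of background in this difference was not tested. RefSeq names 5 CBX1 pseudogenes, and the _s_at class marks probe sets that can read more than 1 transcript, so assignment of the signal to CBX1 alone is uncertain. No second CBX1 probe set exists to check it.

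CBX5 rested on 7 probe sets, of which 3 passed the filter. The brightest (11740499_a_at) read 216 in the knockdown array and 234 in the control, a difference of -0.11. The second (11716279_x_at) read 180 in the knockdown array and 218 in the control (-0.26), just inside 1.2-fold. The third (11716278_s_at) read 154 in the knockdown array and 193 in the control (-0.30), and was past it.

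All CBX5 probe sets lay lower in the knockdown array, and the 3 past the filter scattered with an SD of 0.10, close to the probe error. Over all probe sets past the filter 0.809% were at least 1.2-fold lower, and 2 of the 23 here were, that of CBX1 and 11716278_s_at of CBX5. The count was 4 with a pseudocount of 1 and 4 after quantile normalization, which added 11716279_x_at of CBX5 and 11721277_a_at of SUV39H1, and 1, CBX1, with a pseudocount of 64. The 4 CBX5 probe sets below the filter differed by between -0.14 and -0.05. The probe sets 11716278_s_at, 11716279_x_at and the dim 11716277_a_at (-0.14) were designed against 1 target transcript, so these 3 are not independent. The mean over the 3 past the filter was -0.22, and -0.14 over all 7. The losses past the filter were 18.6 to 39.6 units. Background controls with 19 to 22 G or C bases lost 13.5 to 49.0 but were brighter, at 222 to 546 in the knockdown array. Controls with 17 to 19 such bases, nearer in brightness at 146 to 222, lost 7.16 to 13.5. The part of background was not tested.

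CBX3 was the brightest of the 10 genes' signals, which sets no order of transcript levels because probes differ in affinity. Its 3 probe sets read 2011, 1906 and 1371 in the knockdown array, against 1884, 1730 and 1227 in the control. They were higher by 0.09, 0.14 and 0.16. All 3 lay within the quartiles of probe sets of their own brightness, 0.02 and 0.19, and after the loess correction they stood at -0.02, 0.03 and 0.05. CBX3 was thus higher as deposited and not set apart from other bright probe sets. RefSeq names 10 CBX3 pseudogenes, and the classes of its probe sets (_s_at and _x_at) allow signal from such copies.

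A neighbour of CBX3 was examined after these values were seen. HNRNPA2B1, which encodes an RNA-binding protein of the nucleus, starts 697 bases upstream of CBX3 on the opposite strand in RefSeq. Starts were searched within 1000 bases, head to head, in the RefSeq promoter table used. The brightest HNRNPA2B1 probe set read 2777 in the knockdown array and 2496 in the control (0.15), and its other probe set past the filter differed by 0.31. After the loess correction the brightest stood at 0.04.

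**Figure D2:**
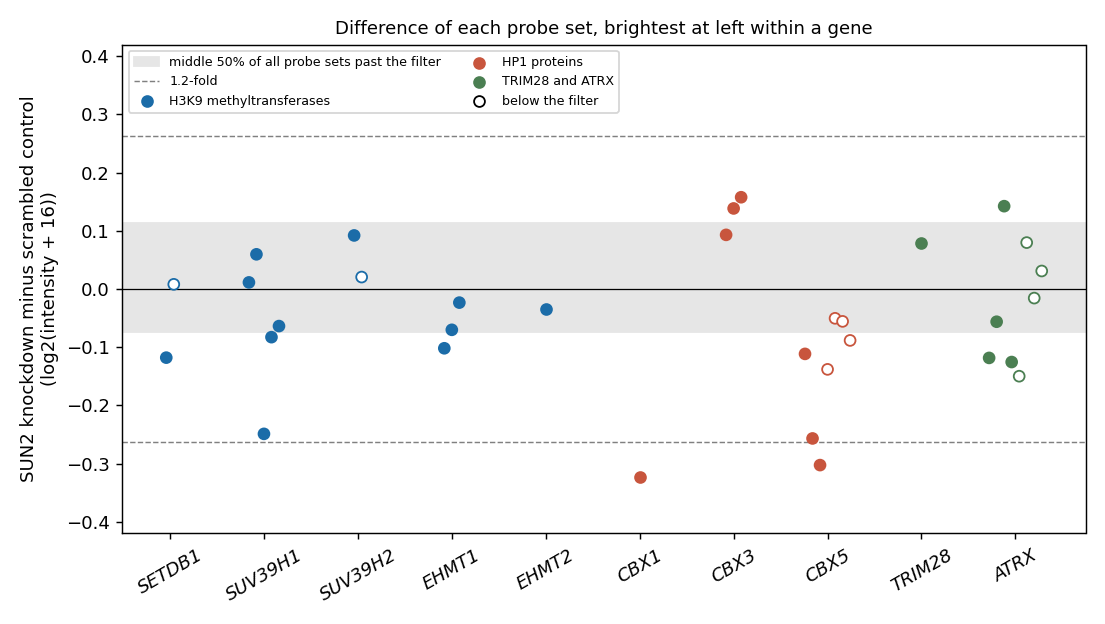
Difference (knockdown minus control, log2(intensity + 16)) of each of the 33 probe sets, by gene and with the brightest at left. The grey band holds the middle 50% of all probe sets past the filter and dashed lines mark 1.2-fold. CBX1 and 1 CBX5 probe set lie past the lower line, and no probe set lies past the upper line.

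**Figure D3:**
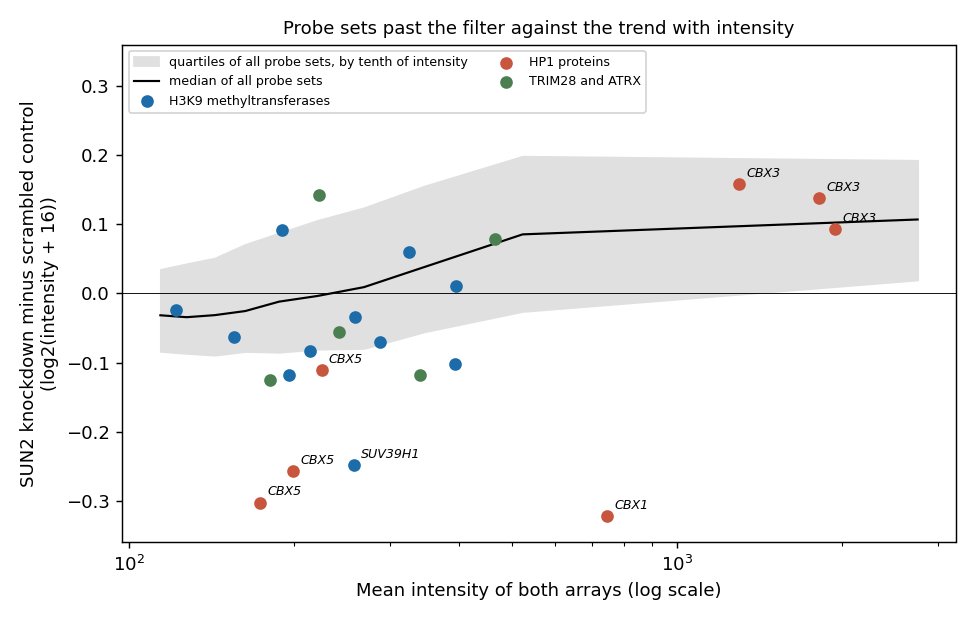
Difference of the 23 probe sets past the filter against their mean intensity (log axis), with the median and quartiles of all probe sets in 10 equal bins. The 3 CBX3 points lie within the band and CBX1, at a difference of -0.32, lies far below it.

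The 5 methyltransferase genes had 13 probe sets, 11 past the filter, and differences between -0.25 and 0.09 (median -0.06). Of the 11, 8 were lower and 3 higher, where 49.0% of all probe sets past the filter were lower. The 11 include 3 of SUV39H1 that were designed against 1 target transcript. None was past 1.2-fold as reported, a size reached upward by 6.22% and downward by 0.809% of all probe sets past the filter. The lowest, 11721277_a_at of SUV39H1, passed it with a pseudocount of 1 (-0.263) and after quantile normalization (-0.28).

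SETDB1, which trimethylates H3K9 at retroelements and zinc finger genes, had 1 probe set past the filter (11719687_at). It read 187 in the knockdown array and 204 in the control, a difference of -0.12, or 1.09-fold lower. The second, below the filter, read 94.7 in the knockdown array and 94.1 in the control (0.01). The background control with 16 G or C bases read 94.2 in the knockdown array and 98.6 in the control array. At that level the dim probe set cannot check the -0.12.

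SUV39H1, an enzyme of pericentromeric H3K9 trimethylation, had 5 probe sets past the filter that disagreed. Its brightest (11746768_a_at) read 397 in the knockdown array and 393 in the control (0.01), and the next (11721278_s_at) read 332 in the knockdown array and 318 in the control (0.06). The third (11721277_a_at) read 234 in the knockdown array and 281 in the control, a difference of -0.25. The 2 dimmest differed by -0.08 and -0.06. The -0.25, 0.06 and -0.08 came from probe sets designed against 1 target transcript, so these 3 are not independent. They differ in sign, so no single direction describes SUV39H1. The mean over the 5 was -0.06.

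SUV39H2, the paralog of SUV39H1, was slightly higher. Its probe set past the filter (11734830_a_at) read 197 in the knockdown array and 184 in the control (0.09). The other read 51.0 in the knockdown array and 50.1 in the control (0.02), in the range of the background controls. Both SUV39H2 differences are smaller than 1 SD of the probe error.

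EHMT1 and EHMT2 encode GLP and G9a, which pair with each other and place the lower methylation states of H3K9 in euchromatin. The 3 EHMT1 probe sets read 379, 280 and 121 in the knockdown array, against 408, 295 and 123 in the control. All 3 were lower, by -0.10, -0.07 and -0.02. EHMT2 had 1 probe set, which read 255 in the knockdown array and 262 in the control (-0.03). Both partners were lower by no more than about the probe error. ARRDC1-AS1, a noncoding RNA gene with a start 110 bases upstream of EHMT1 on the opposite strand, differed by 0.01 on 1 probe set. C2, a complement gene whose annotated start lies 85 bases upstream of that of EHMT2 on the opposite strand, differed by 0.04 on its brightest probe set and by -0.16 on another past the filter.

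TRIM28, also called KAP1, is the scaffold that joins KRAB zinc finger proteins to SETDB1 and HP1. Its 1 probe set read 479 in the knockdown array and 453 in the control (0.08), equal to the median of probe sets of that brightness within 0.01. ATRX, a remodeller that works with DAXX to place histone H3.3 at telomeres and pericentromeric repeats, had 8 probe sets, 4 of them past the filter.

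ATRX probe sets went both ways. The brightest (11721717_s_at) read 325 in the knockdown array and 355 in the control (-0.12), and the second read 236 in the knockdown array and 247 in the control (-0.06). The third (11721714_s_at) read 234 in the knockdown array and 210 in the control, a difference of 0.14, and the fourth read 172 in the knockdown array and 189 in the control (-0.13). The 4 below the filter ran from -0.15 to 0.08, with 2 lower and 2 higher. The mean over all 8 ATRX probe sets was -0.03.

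The split of the 10 genes moved with the scaling of the arrays. It was 6 lower and 4 higher as deposited, 8 lower after the loess correction and 9 lower after quantile normalization, while 50.2%, 53.9% and 58.8% of all genes were lower under these 3 scalings. CBX3 (-0.02 with loess, -0.01 with quantile normalization), SUV39H1 (-0.04 and -0.05) and, with quantile normalization, TRIM28 (-0.004) changed sign. CBX1, CBX5, ATRX, SETDB1, EHMT1 and EHMT2 were lower and SUV39H2 was higher under every setting that gave them a value.

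**Figure D4:**
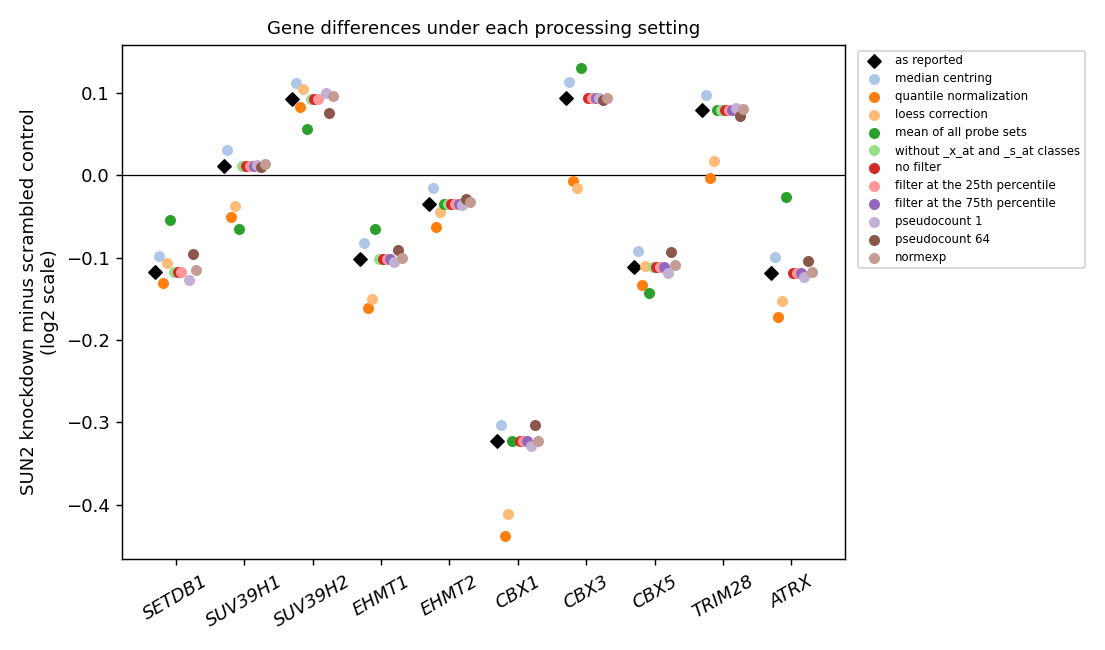
Difference of each of the 10 genes (log2 scale) as reported (black diamonds) and under 11 other processing settings (coloured points). CBX1 lies between -0.44 and -0.30 under each setting that gives it a value, and CBX3, SUV39H1 and TRIM28 lie on both sides of 0.

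Other genes of the pathway were read in 8 lists, of which 59 genes had a probe set of 1 symbol and 53 passed the filter. Of the 53, 32 were higher and 21 lower, with a median of 0.02, against 49.8% of all genes higher. After the loess correction 23 of the 53 were higher, where 46.1% of all genes were. After quantile normalization 22 of the 53 were higher, where 41.1% of all genes were. The split of the 53 thus has no settled direction. AHCTF1 was the only gene of the 53 past 1.2-fold on its brightest probe set.

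Partners of the methyltransferases had 5 of 6 genes past the filter higher (median 0.04), where 49.8% of all genes were higher. The other 2 genes of this list lay below the filter and differed by -0.09 and -0.04. CDYL, a chromodomain protein, was higher by 0.19, with its 2 probe sets at 0.04 and 0.19, and ZNF644, a zinc finger partner of EHMT1 and EHMT2, was also higher by 0.19, with 3 probe sets between 0.19 and 0.28. WIZ, which also binds that pair, differed by -0.06. ATF7IP, which stabilises SETDB1, differed by 0.04 close to the filter.

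The HUSH complex, which spreads H3K9 methylation with SETDB1, had 2 of 4 genes higher (median 0.06). MPHOSPH8, its chromodomain subunit, differed by 0.15, with 4 probe sets between -0.02 and 0.17. PPHLN1 differed by 0.13 and, on its second probe set, by 0.27, past 1.2-fold, while the ATPase MORC2 differed by -0.06 and TASOR by -0.02.

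The demethylases that remove the mark had 4 of 10 genes higher (median -0.02). KDM3B differed by 0.10 and KDM1A by 0.03, and KDM4D and KDM4A by -0.13 each. The second KDM4A probe set past the filter differed by 0.03.

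Genes of HP1 partners and chaperones had 9 of 12 higher (median 0.03), where 49.8% of all genes were higher. AHCTF1, whose product ELYS seeds nuclear pores on chromatin, read 286 in the knockdown array and 229 in the control (0.30), with 0.04 on its other probe set. SMCHD1, a chromatin protein of the inactive X chromosome, was higher by 0.21 and by 0.06 on its other probe set. POGZ, an HP1-binding zinc finger protein, differed by -0.13 and INCENP, a centromere protein, by -0.06. LBR, the lamin B receptor that binds HP1 at the nuclear membrane, read 872 in the knockdown array and 851 in the control (0.03). After the loess correction LBR stood at -0.06, and CHAF1A (-0.02), CHAMP1 (-0.02) and HP1BP3 (-0.08) also turned lower. The count of 9 of 12 higher thus does not hold under that scaling.

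Of the ATRX partners, H3-3B differed by 0.09 and DAXX by 0.01, while H3-3A read 33.3 in both arrays, at the floor of the array, on its brightest probe set of 1 symbol. Among genes for H4K20 and DNA methylation at heterochromatin 4 of 8 were higher (median 0.0006). ZBTB24 differed by 0.18 and UHRF1, which couples H3K9 methylation to DNA methylation, by 0.14. DNMT3B, a DNA methyltransferase, differed by -0.13, with all 6 probe sets lower (-0.24 to -0.06), and the H4K20 methyltransferase KMT5C by -0.10.

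Partners of TRIM28 had 5 of 8 genes higher (median 0.004) and the lowest values of the 8 lists. CHD3, an ATPase of the NuRD complex that TRIM28 recruits, read 251 in the knockdown array and 296 in the control (-0.23), with 4 probe sets between -0.23 and -0.17. HDAC1, a deacetylase of that complex, read 1695 in the knockdown array and 1983 in the control (-0.22), with 3 probe sets between -0.22 and -0.11. After the loess correction HDAC1 stood at -0.33, past 1.2-fold. Its paralog HDAC2 differed by 0.14 on 1 probe set, and MORC3 was highest in the list at 0.22.

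The chromobox genes of the Polycomb complexes, whose chromodomains read another mark, had 1 of 3 genes higher (median -0.06). CBX6 differed by 0.06, CBX7 by -0.06 and CBX2 by -0.08, all nearer to 0 than the -0.32 of CBX1.

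Zinc finger genes are both partners of TRIM28, through their KRAB members, and known carriers of H3K9 trimethylation. Of 451 genes with a ZNF symbol, 227 passed the filter, with 93 higher and 134 lower (41.0% higher, against 49.8% of all genes). Their median was -0.02, against -0.0008 over all genes, and 0.001 against 0.018 after median centring, so its sign is not settled. After the loess correction the ZNF median was -0.015 and that of all genes -0.012. After quantile normalization they were -0.031 and -0.028. The ZNF genes were not matched to other genes in intensity. At least 1.2-fold, 4 were higher and 1 lower, where 5.97% and 0.884% of all genes were, and none passed 1.5-fold. The highest were ZNF721 (0.42) and ZNF655 (0.30), and the lowest were ZNF827 (-0.38) and ZNF121 (-0.25). ZNF721 read 240 in the knockdown array and 175 in the control on 1 probe set.

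**Figure D5:**
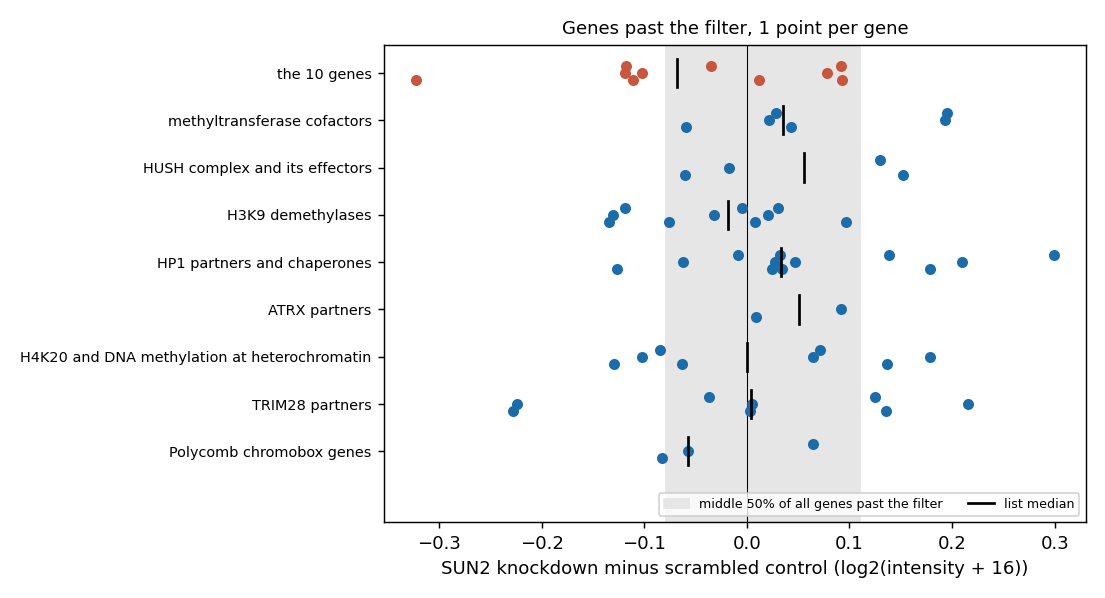
Difference (knockdown minus control, log2(intensity + 16)) of the 10 genes and of the genes past the filter in 8 related lists, with 1 point per gene, the list median as a black line and the middle 50% of all genes past the filter in grey. CBX1 at -0.32 is the lowest point and AHCTF1 at 0.30 the highest.

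The arrays average over the culture, so fewer cells with a transcript and less transcript per cell cannot be told apart. They measure transcripts, and neither H3K9 methylation nor HP1 protein was measured here. The hairpin, the culture and the array cannot be told apart from each other with 1 array per group.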

How the data were processed

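RNA of 1 SUN2 knockdown culture and 1 scrambled control culture was hybridized to 1 Affymetrix array each (100 ng of RNA, per the labels' protocols). The authors deposited 1 linear intensity per probe set and array. MAS5 and RMA appear in the submitters' processing notes, without saying which step each served. Scaling, centring and background treatment are not given in the sources used here. Median intensity was 107 on the knockdown array and 109 on the control array.

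Of 49395 probe sets, 102 controls were kept apart and 44988 had 1 gene symbol in the platform annotation, updated through Entrez IDs with RefSeq (GRCh38.p14). Differences are the knockdown minus the control on the log2(intensity + 16) scale. A gene stood for its probe set with the highest mean intensity. Genes at or above the median intensity (108.2) were kept. With 1 array per group there is no test, p-value or SD between cultures, and the number of arrays limits the precision. Genes were counted past 1.2-fold and 1.5-fold. The steps were tested on simulated data. The 11 alternatives changed the scaling (median, quantile, loess), the probe set rule, the filter, the pseudocount (1, 64) or the background (normexp), with limma 3.58.1 in R 4.3.3.

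The members and lists were chosen with earlier results of these data known. The text names the 10 genes, SUN2, the 2 genes with the largest difference in each direction in a described pathway list and in the colon epithelial list, and list genes past 1.5-fold. ATF7IP, LBR, H3-3A, EPCAM, CDX2, VIL1, LGALS4, CDH1, CLDN7, KRT19, PDGFRB, HNRNPA2B1, C2 and ARRDC1-AS1 were named for their role after values were seen. CHAF1A, CHAMP1 and HP1BP3 were named because they changed sign after the loess correction. Promoters and neighbours come from RefSeq, which held none for TRIM28 and ATRX in the table used.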

Additional observations from a re-analysis of the deposited data

How the results depend on the processing

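No paired analysis was possible because there is 1 array in a group, which also leaves nothing to omit in turn. Over the 11 alternatives the median of the 10 genes stayed between -0.10 and -0.03, and CBX1 between -0.44 and -0.30 where it had a value. Dropping the _x_at and _s_at classes left 7 of the 10 genes, without CBX1, CBX3 and ATRX, so that 0 were 1.2-fold lower. The count of the 23 probe sets 1.2-fold lower was 2 as reported, 4 under quantile scaling, 4 at a pseudocount of 1 and 1 at a pseudocount of 64. Of all genes, 730 were 1.2-fold higher as reported, but 382 under quantile scaling, 477 under loess and 374 under averaging of probe sets. The count 1.2-fold lower was 108 as reported, 242 under quantile scaling, 192 under loess, 47 under averaging, 69 when both classes were dropped and 59 at a pseudocount of 64. Of the related genes, 1 was 1.2-fold higher as reported, and 0 under averaging, when both classes were dropped or at a pseudocount of 64. In the other direction the count was 0 as reported, and 1 (HDAC1) under quantile scaling and 1 under loess. Keeping genes above the 75th percentile left 20 related genes higher, in place of 32, since fewer genes were kept. The cause of the other shifts was not tested. Dim probe sets are limited by background: the filter is above the background control of 16 GC bases and below that of 17.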
